A study of Sorghum bicolor with 64 samples.

Results

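Intact stems of *dd* plants were compared with intact stems of *DD* plants 10 d after anthesis, across all 16942 genes of the deposited stem table. The stem samples whose titles give the control treatment, day 10 and either genotype were taken, which left 4 *dd* samples (replicates 1 to 4) and 3 *DD* samples (replicates 1 to 3), 7 of the 29 stem samples. The series describes 64 samples of stem and leaf, of which 53 have a column; *DD* replicate 4 of this comparison has none and was not analysed here. The plants were sorghum near-isogenic lines in the Tx623 background grown in the field at Urbana. In the study heads were either removed at anthesis or left on, and organs were sampled 3 or 10 d later. All 7 samples here kept their heads, and RNA was taken from the internode numbered 4 from the top after its outer layer had been shaved off. *DD* plants carry a functional *SbNAC074A* allele and *dd* plants carry a recessive allele that encodes a truncated protein. The labels call the replicates biological, but nothing in them says that each was a separate plant. The p-values thus measure only the spread between samples within groups, taken over all 29 stem samples. That spread may in part be technical.

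The *D* locus of sorghum separates dry from juicy stalks. Its gene, *SbNAC074A* (*Sobic.006G147400*, on chromosome 6 by its identifier), encodes a NAC transcription factor, a family of plant regulators that includes switches for cell wall thickening, senescence and cell death. In *DD* plants pith parenchyma cells of the stem die and leave air spaces, and the midrib of the leaf is white. In *dd* plants these cells stay alive, the stem holds juice and the midrib is green. Near-isogenic lines share most of their genome but keep a stretch of the donor's chromosome around the locus that was selected, so that genes next to it may also differ between the lines.

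Values are TPM, a unit which divides the reads of each gene by its length and shares out a fixed total. The columns of the 7 samples summed to 994604 to 996581 TPM, with 9 to 23 genes listed at 0 in each and 4.33 to 5.96% of the total in the 10 highest genes. The number of reads behind a TPM value cannot be read from it, so that the depth of each sample is unknown and only the replicates show the precision. The 65 genes of the light reactions measured in leaves summed to 52567 to 84692 TPM in intact leaves at 10 d, against 3950 to 8094 TPM for 61 such genes in the 7 stems, in tables that were normalized separately. The sums in all stems were far below those in leaves.

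*dd* replicates 3 and 4 stood apart from the other intact stems. On the first principal component of the 500 most variable genes, which held 33.97% of their variance, the 3 *DD* samples lay at -25.6, -31.2 and -24.5 and *dd* replicates 1 and 2 at -23.0 and -25.0. *dd* replicates 3 and 4 lay at 9.52 and 9.15, among the values of stems without heads, while all intact stems at 3 d lay between -19.4 and -4.18. By correlation with the mean of each group, *dd* replicates 1 and 2 were closest to intact *DD* stems at 10 d, with r of 0.988 and 0.985. *dd* replicate 3 was closest to the other *dd* samples of its group, with r of 0.970, and replicate 4 to intact *dd* stems at 3 d, with r of 0.963. These correlations run across genes and describe likeness only. The genotype was checked on 31 genes, 18 of them on chromosome 6, whose values did not overlap between the 11 *dd* and 11 *DD* stems outside this comparison. *dd* replicates 3 and 4 were nearer to the *dd* mean in 17 and 15 of the 18 genes of chromosome 6, and each of the other 5 samples was nearer to its own genotype in 15 to 17. Over all 31 genes the count nearer to the own genotype was 26, 19, 30 and 21 in *dd* replicates 1 to 4. It was 28, 26 and 25 in *DD* replicates 1 to 3. The treatment and the day on the labels of *dd* replicates 3 and 4 could not be checked in this way, so that a difference that rests on these 2 libraries cannot be told apart from one of treatment or day. Results are therefore also given without them, though not for every gene.

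**Figure D1:**
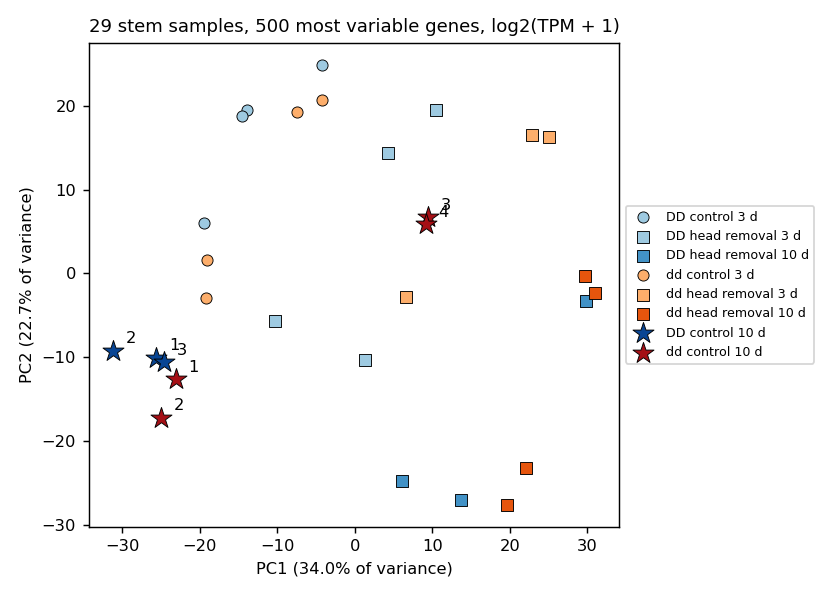
The 29 stem samples on the first and the second principal component of log2(TPM + 1), over the 500 most variable genes. Points are single samples, marked by group and, for the 7 samples compared here, by replicate; *dd* replicates 3 and 4 lie near 9 on the first component, whereas the other 5 lie between -31.2 and -23.0.

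Few genes passed the test for a difference between the genotypes. In a limma fit of log2(TPM + 1) with the means of 8 stem groups over all 29 samples, 23 of 16942 genes (0.136%) passed an adjusted p under 0.01 (Benjamini-Hochberg over all genes), and 10 (0.059%) rose and 13 (0.0767%) fell in *dd*. Genes that also changed by at least 1 on the log2 scale are called DEGs here. They numbered 10 (0.059%), 7 up (0.0413%) and 3 down (0.0177%) in *dd*. At an adjusted p under 0.05 the count was 114 (0.673%). At an unadjusted p under 0.05 there were 3278 genes (19.3%), 731 higher (4.31%) and 2547 lower (15%) in *dd*. Over all genes the median log2 difference was -0.08 and 6239 genes (36.8%) were above 0. Scaling changes this balance. After median-of-ratios scaling the median was 0.01 and after quantile normalization 0.00, and the share of passing genes that were higher in *dd* went from 43.5% to 66.7% and 63.2%; at an unadjusted p under 0.05 it went from 22.3% to 53.7% and 47.1%. Without *dd* replicates 3 and 4, 10 genes (0.059%) passed the test, of which 7 were among the 23. Without *dd* replicates 1 and 2, 582 passed, among them all 23.

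**Figure D2:**
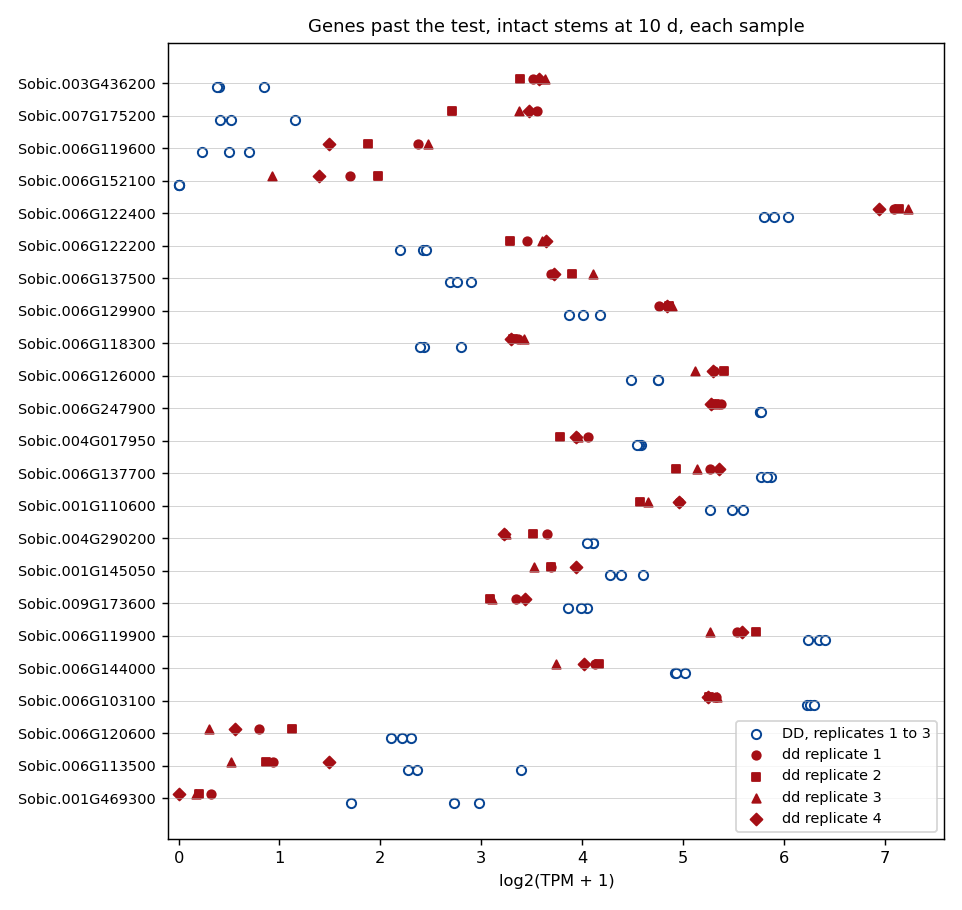
log2(TPM + 1) of the 23 genes past the test, with 1 row per gene and 1 point per sample, *DD* and *dd* in different colours. In each row the 4 *dd* points and the 3 *DD* points do not overlap; for *Sobic.003G436200* the *dd* samples lie between 9.41 and 11.4 TPM and the *DD* samples between 0.299 and 0.797 TPM.

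Chromosome 6, which carries the *D* locus, held 15 of the 23 genes (15 of its 1499 genes tested). Of these, 14 lay between *Sobic.006G103100* and *Sobic.006G152100*, a span of 275 table genes that runs from 249 genes before *SbNAC074A* to 25 genes after it. The limits of this span were set by the passing genes themselves, so that its share of 5.09% is a description. Across the same span, and so also as a description, 84 genes (30.5%) had *dd* and *DD* values that did not overlap, against 2877 (17%) of all genes. Outside the span 9 of 16667 genes passed, 1 of them on chromosome 6. Within 100 table genes of *SbNAC074A* on either side, a window that did not use the values, 4 of 201 genes (1.99%) passed. In that window 46 genes (22.9%) had values without overlap. Chromosome 1 held 3 passing genes, chromosome 4 held 2, chromosomes 3, 7 and 9 held 1 each, and chromosomes 2, 5, 8 and 10 none at this threshold, with 10, 6, 2 and 4 genes at an adjusted p under 0.05.

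**Figure D3:**
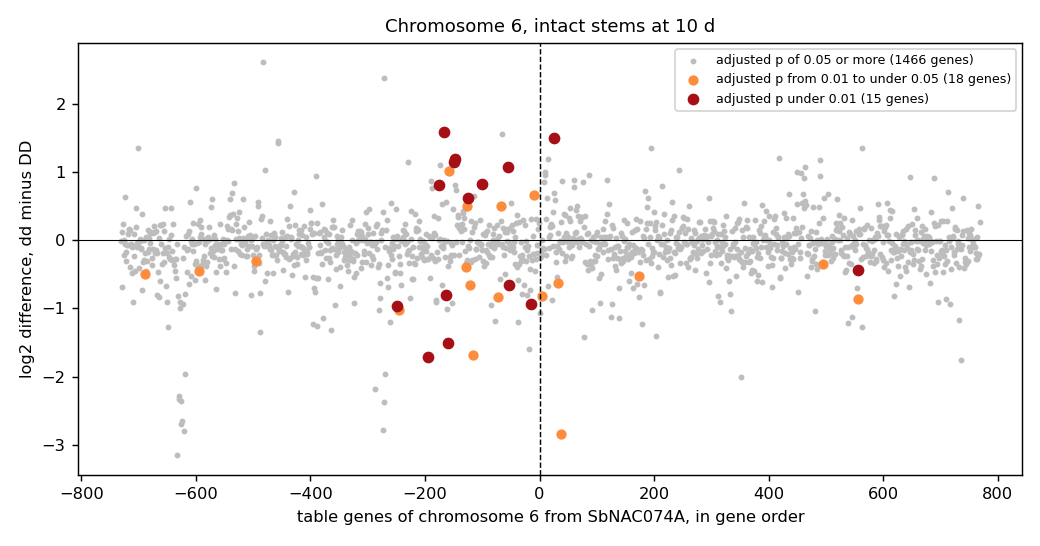
log2 difference (*dd* minus *DD*) of the 1499 genes of chromosome 6 in gene order, counted in table genes from *SbNAC074A* at 0. Marked points passed the test; 14 of the 15 lie from 249 genes before to 25 genes after the *D* locus, and 1 lies 556 genes after it.

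The genes of this span differ in what they do, and enzymes of sugar and wall metabolism were among those that rose in *dd*. *Sobic.006G122400* encodes a raffinose synthase, which moves galactose from galactinol to sucrose. It was measured at 135, 140, 149 and 122 TPM in *dd* replicates 1 to 4 and at 58.7, 54.8 and 64.8 TPM in *DD* replicates 1 to 3. The lowest *dd* sample was thus well above the highest *DD* sample, and the gene was 2.27-fold higher in *dd* (log2 difference 1.19 ± 0.17 SE, limma adjusted p = 0.000546). Its neighbour in the table, *Sobic.006G122200*, encodes a cellulase (endoglucanase), which cuts beta-glucan chains. Its levels were 9.97, 8.73, 11.2 and 11.5 TPM in *dd* and 4.37, 3.58 and 4.48 TPM in *DD*, without overlap (log2 difference 1.14 ± 0.16 SE, limma adjusted p = 0.000546). It was the only member of the 47 cell wall loosening genes to pass the test. Without *dd* replicates 3 and 4 the differences kept their size, 1.199 and 1.01, at limma adjusted p of 0.0127 and 0.0335.

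Other genes of the span, among them a proteasome subunit and a synaptotagmin, also rose in *dd*. *Sobic.006G126000*, which encodes RPN7, a subunit of the lid of the proteasome, was at 38.6, 41.3, 33.6 and 38.4 TPM in *dd* and 25.9, 25.9 and 21.3 TPM in *DD* (log2 difference 0.62 ± 0.11 SE, limma adjusted p = 0.00484). No other gene of the 67 in the proteasome list passed. *Sobic.006G129900*, a ribosome recycling factor of the kind that takes ribosomes apart after translation in plastids and mitochondria, was at 26.03, 28.1, 28.6 and 27.7 TPM in *dd* and 17.0, 13.6 and 15.04 TPM in *DD*, 1.77-fold higher in *dd*. An extended synaptotagmin, *Sobic.006G119600*, of a family that ties the endoplasmic reticulum to the plasma membrane, was at 4.18, 2.68, 4.55 and 1.81 TPM in *dd* and below 1 TPM in every *DD* sample, at 0.415, 0.617 and 0.173. *Sobic.006G137500*, described by a potassium channel tetramerization domain, was at 11.9, 13.9, 16.3 and 12.2 TPM in *dd* and 5.46, 6.48 and 5.79 TPM in *DD*, 2.10-fold higher in *dd*. In each of these genes every *dd* sample was above every *DD* sample. Without *dd* replicates 3 and 4 the log2 differences of the recycling factor, the synaptotagmin, *Sobic.006G137500* and RPN7 were 0.80, 1.65, 1.01 and 0.69. Of these only the synaptotagmin passed (limma adjusted p = 0.00215).

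One gene of the span was read in *dd* alone. *Sobic.006G152100*, 25 table genes after *SbNAC074A* and without a description, was at 2.24, 2.93, 0.898 and 1.62 TPM in the *dd* samples and listed at 0 in all 3 *DD* samples, as it was in all 14 *DD* stems of the series. *Sobic.006G118300*, also without a description, was higher in *dd*, at 8.78 to 9.75 TPM against 4.25 to 5.98 TPM.

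The strongest fall in the span by its test was that of *Sobic.006G103100*, which encodes a mitochondrial lipoyl synthase, the enzyme that makes the lipoyl cofactor of pyruvate dehydrogenase and related complexes. It was at 39.0, 37.2, 39.3 and 36.8 TPM in *dd* and at 73.7, 75.6 and 77.6 TPM in *DD*. The spread within each genotype was small, and *dd* held 0.51 of the *DD* level (log2 difference -0.97 ± 0.06 SE, limma adjusted p = 1.10e-09). A RING finger gene, *Sobic.006G144000*, of a domain class found in many ubiquitin ligases, lies 14 table genes before *SbNAC074A*. It was at 16.5, 17.0, 12.3 and 15.2 TPM in *dd* and 29.2, 31.5 and 29.4 TPM in *DD* (log2 difference -0.94 ± 0.11 SE, limma adjusted p = 3.58e-05). Both genes passed in all 18 alternatives other than the additive model and the fit of the 7 samples alone, which were not counted here.

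Further genes of the span fell in *dd*. *Sobic.006G137700* encodes GCP2, a component of the gamma-tubulin complex from which microtubules grow. It was at 37.5, 29.4, 34.2 and 40.01 TPM in *dd* and 53.8, 57.6 and 55.8 TPM in *DD* (log2 difference -0.65 ± 0.10 SE, limma adjusted p = 0.00100). *Sobic.006G119900*, described only by a family label that mentions the ovarian carcinoma antigen CA125, was at 37.4 to 51.7 TPM in *dd* and 74.3 to 83.7 TPM in *DD*. Lower still were an AAA+ ATPase, *Sobic.006G120600*, and a gene described as a serine endopeptidase, *Sobic.006G113500*. The ATPase was at 0.734, 1.17, 0.233 and 0.478 TPM in *dd* and 3.94, 3.64 and 3.31 TPM in *DD*. The endopeptidase was at 0.915, 0.825, 0.438 and 1.81 TPM in *dd* and 9.49, 4.13 and 3.83 TPM in *DD*. Both genes sat near the bottom of the table in *dd*, where the added count of 1 TPM makes the log2 difference (-1.51 ± 0.23 SE and -1.72 ± 0.31 SE) smaller than the ratio of the TPM. The last passing gene of chromosome 6, *Sobic.006G247900*, lies 556 table genes after *SbNAC074A*. It encodes phosphoribosylformylglycinamidine synthase, an enzyme of purine synthesis, and was at 37.6 to 40.4 TPM in *dd* and 53.1 to 53.7 TPM in *DD*. When *dd* replicates 3 and 4 were left out, GCP2 still passed, at -0.73 (limma adjusted p = 0.00432). *Sobic.006G119900*, the ATPase, the endopeptidase and the purine enzyme did not, at log2 differences of -0.70, -1.25, -1.77 and -0.42.

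Of the genes elsewhere, the one with the smallest adjusted p of the whole table was *Sobic.003G436200*, on chromosome 3 by its identifier, which encodes a protein of unknown function (DUF3615). It was at 10.4, 9.41, 11.4 and 10.9 TPM in *dd* and 0.797, 0.318 and 0.299 TPM in *DD*. All 4 *dd* samples were close together and far above the *DD* samples (log2 difference 2.99 ± 0.17 SE, limma adjusted p = 7.80e-11). *Sobic.007G175200*, which encodes another protein of unknown function (DUF241), was at 10.7, 5.56, 9.34 and 10.1 TPM in *dd* and 0.432, 1.23 and 0.328 TPM in *DD* (log2 difference 2.58 ± 0.31 SE, limma adjusted p = 6.94e-05). Without *dd* replicates 3 and 4 both still passed, at 2.91 and 2.44.

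The other genes outside chromosome 6 that passed were lower in *dd*. A cupin family gene, *Sobic.001G469300*, was at 0.249, 0.153 and 0.125 TPM in *dd* replicates 1 to 3, listed at 0 in replicate 4, and at 2.27, 6.85 and 5.62 TPM in *DD* (log2 difference -2.30 ± 0.34 SE, limma adjusted p = 0.000988). It missed the test without *dd* replicates 3 and 4 (limma adjusted p = 0.0304) with a like difference of -2.21. The other 5 fell by less. They included a glutathione peroxidase, *Sobic.004G290200*, of a family that reduces hydroperoxides, at 8.36 to 11.5 TPM in *dd* and 15.5 to 16.3 TPM in *DD*. A relative of GCN1, *Sobic.001G110600*, known in yeast as a partner of the kinase that senses amino acid shortage, was at 22.8 to 30.2 TPM in *dd* and 37.5 to 47.2 TPM in *DD*. *Sobic.009G173600*, described as a cobaltochelatase, was at 7.50 to 9.84 TPM in *dd* and 13.5 to 15.6 TPM in *DD*. When *dd* replicates 3 and 4 were left out, the peroxidase, the GCN1 relative and the cobaltochelatase had log2 differences of -0.51, -0.68 and -0.75. None of them then passed (limma adjusted p of 0.277, 0.0599 and 0.0352). The remaining *Sobic.004G017950* and *Sobic.001G145050* have no description.

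The same genotype contrast exists in 3 other pairs of stem groups, intact stems at 3 d and stems without heads at 3 and 10 d. These groups share no samples with the comparison but share the estimate of the spread. Of the 23 genes, 23 had the same sign in intact stems at 3 d and 13 also passed there, where 58 genes of the table (0.342%) did. In stems without heads at 3 d the numbers were 22 and 14, with 388 genes (2.29%) passing. At 10 d they were 21 and 11, with 75 genes (0.443%) passing. In all 3 pairs 9 genes passed with the same sign. The genes of the span on chromosome 6 passed at 11, 12 and 9 of 14 in the 3 pairs, and the genes elsewhere at 2 of 9 in each. Over all stems, 11 of the 23 genes had no overlap between the 15 *dd* and the 14 *DD* samples. Over all genes of the table this was so for 18, 14 of them on chromosome 6. These 11 genes include the lipoyl synthase, the RING finger gene, the cellulase, GCP2, RPN7 and *Sobic.003G436200*.

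*Sobic.007G175200*, by contrast, had log2 differences of 0.19 in intact stems at 3 d and of -0.27 and 0.65 in stems without heads at 3 and 10 d, none past the test. Whether a genotype difference changed with day or treatment was tested for each gene by interaction terms in the same limma fit. No gene passed at an adjusted p under 0.01 for genotype by day among intact stems, or for genotype by treatment at 10 d. At an unadjusted p under 0.05 there were 1431 (8.45%) and 1735 (10.2%). With array weights in limma, which give unlike samples less weight, 126 and 1 genes passed. In intact leaves at 10 d, fitted apart, 5 of 16386 genes (0.0305%) passed between the genotypes. Of the 23 stem genes, 18 were measured there, 10 had the same sign and 3 passed with it, *Sobic.003G436200*, the ribosome recycling factor and the AAA+ ATPase.

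**Figure D4:**
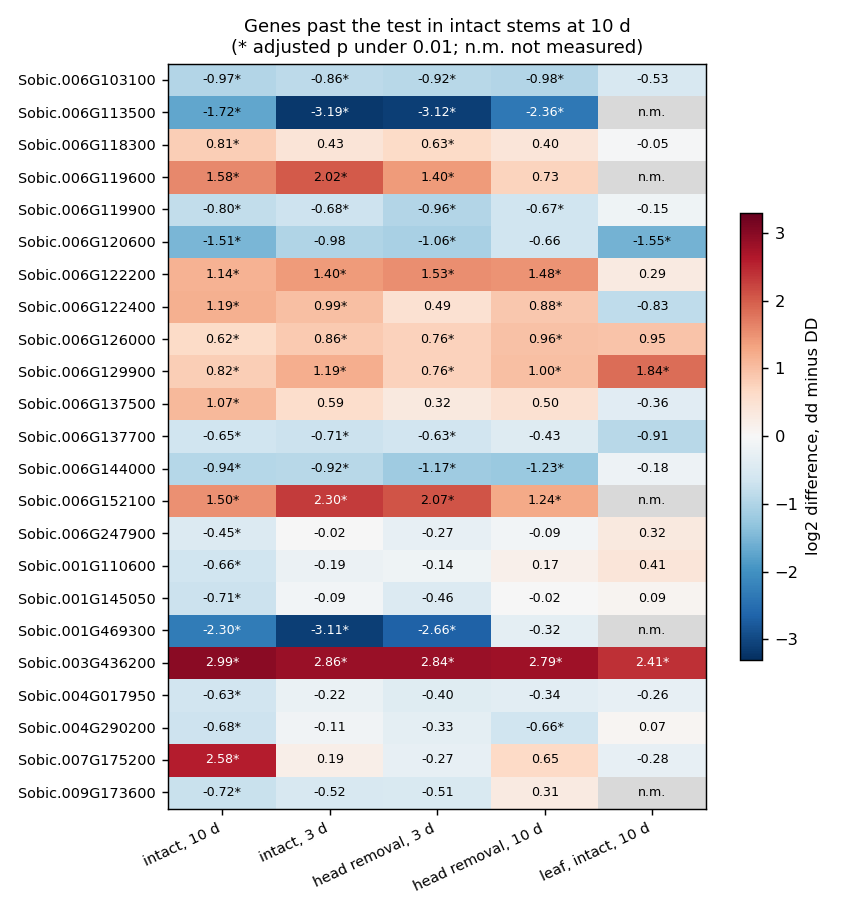
log2 difference (*dd* minus *DD*) of the 23 genes in intact stems at 10 d and in the other stem groups and intact leaves, as colours; an asterisk marks an adjusted p under 0.01 and n.m. a gene not measured. Of the 23 genes, 13, 14 and 11 carry an asterisk with the same sign in the 3 other stem pairs and 3 do in leaves.

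*SbNAC074A* itself was measured at 4.82, 1.02, 4.01 and 0.575 TPM in *dd* and at 3.64, 11.6 and 3.65 TPM in *DD*. The genotypes overlapped (log2 difference -1.06 ± 0.69 SE, limma adjusted p = 0.396). As the *dd* allele still makes a transcript, this level does not check the labels. Bulk tissue cannot tell fewer cells of a type from less RNA per cell, which holds for each difference given here.

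Of the 27 genes in the cell death list none passed at an adjusted p under 0.01 in these stems, and some were nearly silent in *dd*. At an unadjusted p under 0.05, 4 were higher and 7 lower, where 4.31% of all genes were higher and 15% lower. In 5 members (18.5%) every *dd* sample was above every *DD* sample, against 4.47% of all genes. In 4 (14.8%) every *dd* sample was below, against 12.5% of all genes. The list's median log2 difference was -0.08, the same as that of all genes. *SbXCP1* (*Sobic.007G172100*) encodes a papain-like protease whose Arabidopsis relatives clear the contents of dying xylem cells. It was at 0.134, 0.101, 0.175 and 0.190 TPM in *dd* and at 3.40, 29.99 and 2.62 TPM in *DD*. Every *DD* sample was above every *dd* sample, but the *DD* values spread widely and the test was missed (log2 difference -2.78 ± 0.86 SE, limma adjusted p = 0.105). In intact stems at 3 d and in stems without heads at 3 d the gene passed, with log2 differences of -5.44 and -3.90. *Sobic.004G085800*, described as metacaspase-9, a protease that in Arabidopsis acts in xylem cell death, was at 0.118, 0.094, 0.092 and 0.133 TPM in *dd* and 2.15, 4.07 and 4.51 TPM in *DD* (log2 difference -2.003 ± 0.45 SE, limma adjusted p = 0.0404). It was singled out after its values were seen, from 4 genes under 0.5 TPM in all *dd* samples and over 2 TPM in all *DD* samples.

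The other 3 of these were *SbXCP1*, the cupin family gene and a hydrophobic seed protein gene, *Sobic.005G046700*. The last was below 0.5 TPM in *dd* and at 3.64, 69.0 and 4.95 TPM in *DD*, again highest in *DD* replicate 2 (limma adjusted p = 0.0524). One gene showed the reverse pattern, *Sobic.007G051800*, described as a bHLH transcription factor, at 3.65, 4.51, 2.42 and 3.52 TPM in *dd* and 0.163, 0.192 and 0.161 TPM in *DD*. Its log2 difference was 1.93 ± 0.74 SE, with a limma adjusted p of 0.163.

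Other genes that the study names did not pass either. *SbbHLH093* (*Sobic.001G513700*), a bHLH transcription factor, was at 10.9, 4.53, 8.88 and 2.72 TPM in *dd* and 17.1, 95.3 and 30.6 TPM in *DD*, without overlap but at a limma adjusted p of 0.0640. Among genes of cell death, a homolog of the nuclease gene *BFN1*, *Sobic.003G087200*, was at 215, 218, 221 and 155 TPM in *dd*, within the *DD* values of 109, 303 and 174 TPM. *SbMIF* (*Sobic.008G020700*) was at 328, 342, 317 and 366 TPM in *dd* and 198, 324 and 267 TPM in *DD*, with overlap. A type II metacaspase, *Sobic.004G187200*, was at 2.42 and 6.77 TPM in *dd* replicates 1 and 2, at 0.731 and 0.149 TPM in replicates 3 and 4, and at 5.36 to 6.79 TPM in *DD*. In that gene the difference lay in *dd* replicates 3 and 4 for the most part.

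None of the sugar transport and starch genes that the study names passed the test at 10 d. The sucrose carrier *SbSUT1* (*Sobic.001G488700*), of the family that loads sucrose into the phloem with protons, was at 180 and 187 TPM in *dd* replicates 1 and 2, 70.8 and 80.3 TPM in replicates 3 and 4, and 181, 209 and 170 TPM in *DD*. The first 2 *dd* samples were within the *DD* range and the other 2 were below it. SWEET proteins let sugars pass membranes along their gradient. *SbSWEET16* (*Sobic.001G377600*) was at 28.6, 41.1, 4.01 and 5.69 TPM in *dd* and 44.2, 35.9 and 32.4 TPM in *DD*. *SbSWEET3A* (*Sobic.009G080900*) was at 74.7, 166, 16.2 and 10.5 TPM in *dd* and 86.4, 157 and 120 TPM in *DD*. *SbSWEET4A* (*Sobic.004G136600*) was at 422, 365, 127 and 157 TPM in *dd* and 393, 520 and 437 TPM in *DD*. The same 2 *dd* samples were low in each. *SbSWEET13A* (*Sobic.008G094000*) did not show this, at 203 to 365 TPM in *dd* and 243 to 377 TPM in *DD*. Over the 14 SWEET genes 12 were negative with a median of -0.74, and the median was -0.16 without *dd* replicates 3 and 4.

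In the starch pathway the log2 differences of the genes named by the study lay between -0.50 and 0.88. *SbGPT1* (*Sobic.007G065500*), which carries glucose 6-phosphate into plastids, was at 183, 179, 141 and 135 TPM in *dd* and 209, 247 and 216 TPM in *DD*. It came closest to the test among them (log2 difference -0.50 ± 0.12 SE, limma adjusted p = 0.0554), and its values did not overlap. A starch synthase, *Sobic.010G047700*, which lengthens glucan chains, was at 160, 116, 348 and 181 TPM in *dd* and 142, 65.8 and 108 TPM in *DD* (limma adjusted p = 0.164). ADP-glucose pyrophosphorylase, which makes the sugar donor for starch, had a large subunit gene at 9.96 to 17.96 TPM in *dd* and 10.6 to 13.8 TPM in *DD*. The 29 starch genes as a list had no member past the test, a median of 0.09 with all samples and of -0.06 without *dd* replicates 3 and 4.

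Gene groups were described by counts, since their members are not independent. Of 33 lists built from the deposited descriptions, 2 held a gene past the test, the cellulase and RPN7 named above. The medians of several lists that lay away from that of all genes moved to it when *dd* replicates 3 and 4 were left out, where the median of all genes was -0.04. Cellulose synthases, which spin the cellulose of primary and secondary walls, had a median of 0.33 over 18 genes and of -0.02 without these samples. Their summed TPM was 1364, 1117, 1795 and 3050 in *dd* replicates 1 to 4 and 1362, 1336 and 981 in *DD*, highest in replicate 4. Light reaction genes had a median of 0.19, with 52 of 61 above 0, and of -0.01 without them. Their sums were 5962, 4684, 8094 and 7378 TPM in *dd* and 6337, 3950 and 6438 TPM in *DD*, highest in *dd* replicates 3 and 4. Nitrogen genes went from -0.23 to -0.07, with sums of 5876, 6170, 3984 and 3830 TPM in *dd* and 5510, 8347 and 5737 TPM in *DD*. Cell cycle and core histone genes went from -0.24 to -0.11, with 82 of 108 below 0. NAC factors went from -0.28 to -0.08 and WRKY factors, a family of stress and defence regulators, from -0.29 to -0.05. The part of green tissue, of dividing cells or of any other cell type in these differences was not tested.

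Lists of vascular cell types had no member past the test. The 47 genes of secondary walls and lignin, expressed in xylem and fibres, summed to 2218 to 3048 TPM in *dd* and 2288 to 2497 TPM in *DD*, with a median of 0.01. The 17 phloem genes summed to 821 to 905 TPM in *dd* and 923 to 1171 TPM in *DD*, without overlap of the sums. Taken singly, 0 of the 17 were without overlap in either direction, against 4.47% higher and 12.5% lower of all genes. Their median was -0.15, and -0.06 without *dd* replicates 3 and 4.

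Heat shock genes, which encode chaperones and the factors that induce them, were the list with the largest share of members higher in *dd* without overlap. None of the 96 passed an adjusted p under 0.01, and 31 were higher and 7 lower at an unadjusted p under 0.05, where 731 genes of the table (4.31%) were higher and 2547 (15%) lower, a balance that turned under median-of-ratios scaling as given above. In 32 of them (33.3%) every *dd* sample was above every *DD* sample, against 4.47% of all genes. With only *dd* replicates 1 and 2 set against *DD* this held for 33 (34.4%), against 8.16% of all genes. Every gene of the first count is by its definition also in the second, so that the second is no separate check. These counts were made after values of the list had been seen, and the 96 genes often respond together. The list's median was 0.23, and 0.06 without *dd* replicates 3 and 4. Summed over the list, *dd* replicates 1 to 4 held 14321, 16998, 22311 and 24622 TPM and the *DD* samples 12582, 12099.8 and 13227 TPM. The sum in each *dd* sample thus exceeded each *DD* sum, and it was highest in replicates 3 and 4.

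In 2 members given here every *dd* sample was again above every *DD* sample. A heat shock transcription factor gene, *Sobic.001G093200*, was at 43.5, 87.3, 83.6 and 98.1 TPM in *dd* and 26.9, 29.4 and 32.6 TPM in *DD* (log2 difference 1.31 ± 0.33 SE, limma adjusted p = 0.0602). A small heat shock protein gene, *Sobic.004G228900*, was at 790, 1313, 1200 and 1992 TPM in *dd* and 483, 507 and 656 TPM in *DD* (log2 difference 1.21 ± 0.34 SE, limma adjusted p = 0.0800). Small heat shock proteins hold unfolded proteins in solution. Both genes were chosen after their values were seen. In intact stems at 3 d their log2 differences were -0.12 and 0.32, and neither passed there.

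**Figure D5:**
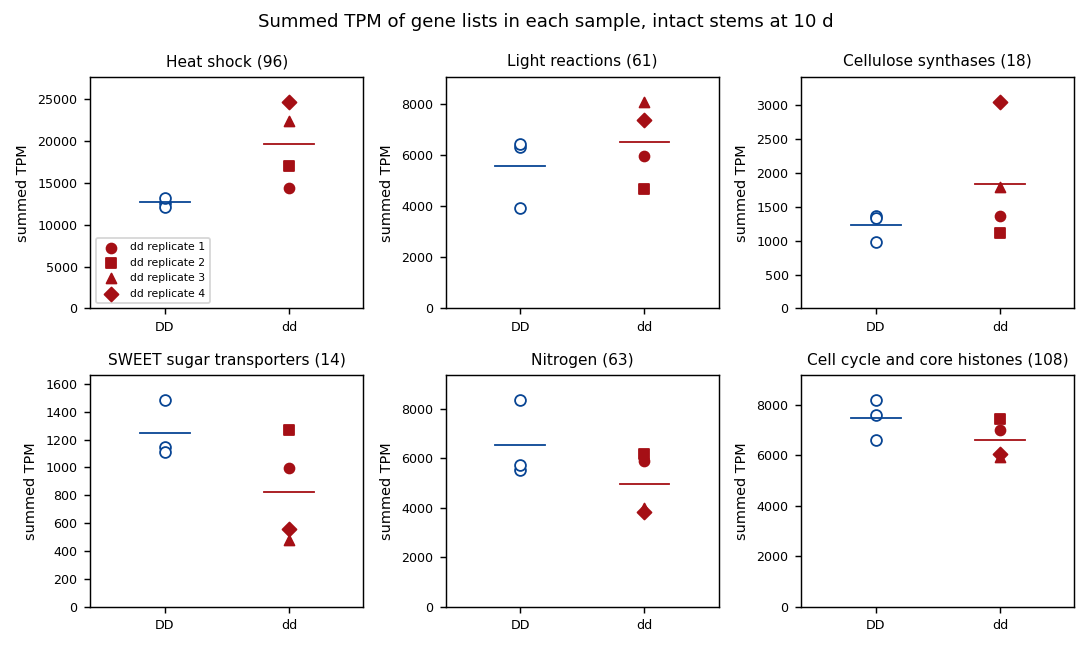
Summed TPM of the members of gene lists in each of the 7 intact stems at 10 d, *DD* and *dd* side by side, with 1 point per sample and each axis starting at 0. Heat shock genes sum to 12099.8 to 13227 TPM in *DD* and 14321 to 24622 TPM in *dd*, and light reaction genes are highest in *dd* replicates 3 and 4, at 8094 and 7378 TPM.

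The widest differences in these samples were within *dd*. In 70 genes *dd* replicates 3 and 4 were both lower than each of the other 5 samples by at least 2 on the log2 scale, and in 2 genes they were both higher by as much. *dd* replicates 1 and 2 were in this way below the other 5 samples in 3 genes and above them in none. The limit was set after the values were seen, and the counts are a description of the libraries and not of the genotype.

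Some genes of hormone and peptide signals were among the 70 and are named here after their values were seen. A gibberellin 20-oxidase gene, *Sobic.001G005300*, was at 33.1 and 49.1 TPM in *dd* replicates 1 and 2, 6.50 and 6.79 TPM in replicates 3 and 4, and 34.6, 54.6 and 43.0 TPM in *DD*. A gibberellin 3-oxidase gene, *Sobic.003G045900*, was at 4.74 and 10.6 TPM, 0.142 and 0.039 TPM, and 6.08, 13.6 and 12.8 TPM in the same order. Together these enzymes carry out the last steps to active gibberellins, which drive stem elongation. Both were near the *DD* level in *dd* replicates 1 and 2 and low in the other pair. *Sobic.002G197000*, a cytokinin trans-hydroxylase of the CYP735A family, which makes trans-zeatin, was at 4.94 and 9.20 TPM in *dd* replicates 1 and 2, listed at 0 in replicate 3, at 0.127 TPM in replicate 4, and at 8.54 to 10.2 TPM in *DD*. *Sobic.008G034700*, which encodes a precursor of phytosulfokine, a peptide that promotes cell growth, was at 258, 290, 8.37 and 31.1 TPM in *dd* and 329, 257 and 277 TPM in *DD*.

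Further genes of the 70, singled out after their values were seen, are known for water, wall or solute transport roles. An aquaporin gene, *Sobic.010G092600*, of the channels that let water pass membranes, was at 836, 864, 99.9 and 87.0 TPM in *dd* and 922, 1157 and 855 TPM in *DD*. A polygalacturonase gene, *Sobic.010G005000*, of the enzymes that cut pectin, was at 401, 545, 6.54 and 17.2 TPM in *dd* and 272, 600 and 320 TPM in *DD*. A polyol transporter gene, *Sobic.009G157800*, was at 66.0, 96.5, 2.30 and 1.52 TPM in *dd* and 47.9 to 62.8 TPM in *DD*. That the 2 low *dd* values lay far below the lowest *DD* value in these genes follows from the limit that picked the 70. *SbSWEET16* and *SbSWEET3A* belong to the 70 as well.

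Among the genes with a described function and a mean of at least 10 TPM, those that ranged widest among the *dd* samples followed the same split, with 1 exception. A solute carrier gene of family 13, *Sobic.001G539200*, was at 137, 191, 0.895 and 0.262 TPM in *dd* and 143, 247 and 88.5 TPM in *DD*. A subtilisin-type protease gene, *Sobic.002G112300*, was at 346, 368, 2.19 and 15.9 TPM in *dd* and 306 to 369 TPM in *DD*. An acid phosphatase gene, *Sobic.002G419500*, was at 59.9, 116, 0.530 and 0.527 TPM in *dd* and 81.6 to 106 TPM in *DD*. The exception was a lipoxygenase gene, *Sobic.003G385500*, of the enzymes that begin jasmonate synthesis among other roles, at 3.53, 2.35 and 0.997 TPM in *dd* replicates 1 to 3 and 387 TPM in replicate 4. In *DD* it was at 2.75, 0.360 and 0.857 TPM, so that a single library gives the log2 difference of 2.30 ± 1.34 SE.

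Near the start of chromosome 6 in gene order, far from the *D* locus, 8 of the 70 genes have neighbouring identifiers from *Sobic.006G024800* to *Sobic.006G026300* and no description. *Sobic.006G026100* was at 942, 630, 6.45 and 10.6 TPM in *dd* and 490, 525 and 573 TPM in *DD*. It also varied within other groups, from 30.7 to 705 TPM in intact *dd* stems at 3 d and from 3.73 to 240 TPM in *dd* stems without heads at 10 d. Genes with neighbouring identifiers can be near copies that share reads, and no sequences were used to check this. The 3 genes low in *dd* replicates 1 and 2 are neighbours too, *Sobic.006G099001*, *Sobic.006G099100* and *Sobic.006G099650*. The second of them was at 11.1 and 7.15 TPM in these samples, at 108 and 125 TPM in *dd* replicates 3 and 4, and at 119 to 235 TPM in *DD*.

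The 2 genes high in *dd* replicates 3 and 4 encode small heat shock proteins. *Sobic.005G086400* was at 4.24, 5.66, 32.4 and 144 TPM in *dd* and 1.11, 1.15 and 0.806 TPM in *DD*. *Sobic.003G081900* was at 79.9, 77.3, 412 and 585 TPM in *dd* and 47.5, 67.0 and 67.7 TPM in *DD*. Every *dd* sample was above the *DD* samples in both genes, with replicates 3 and 4 further above (limma adjusted p = 0.0842 and 0.228).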

How the data were processed

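RNA sequencing of intact sorghum stems was analysed from the stem table, with the leaf table for 1 comparison. Per the submitters' processing notes the reads went through FastQC, Trimmomatic, STAR and DESeq2; versions and the genome build are not given in the sources used here. The TPM values deposited by the authors cover those genes that exceed 3 TPM in 2 samples or more; their own comparisons (fold changes and p-values) and gene clusters were not used. Columns were matched to samples by title.

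log2(TPM + 1) was fitted in R 4.3.3 with limma 3.58.1 (8 group means over 29 stem samples, 21 residual degrees of freedom, eBayes with a trend) and p-values were adjusted by Benjamini-Hochberg over 16942 genes. The study modelled counts additively in its 3 factors, which was tried as an alternative. In simulated data with these groups 78 of 100 genes changed by 1 on the log2 scale passed, and 95 of 100 changed by 2. The simulation drew independent noise with the same spread in every group and changed only genes above a minimum level. It held no split like that among the *dd* samples, so that these shares do not carry over to this comparison. The 33 lists came from patterns on the descriptions, which 1686 genes lack; false matches on "recycling" were removed from the cell cycle list after they were seen. The members and lists were chosen with earlier results of these data known.

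Genes named are DEGs with a described function whose genotypes do not overlap (up to 14 each way), up to 4 passing members per list, passing genes within 100 table genes of *SbNAC074A*, genes the study names, up to 5 DEGs each way per interaction, and the 6 genes that ranged widest among *dd* samples with a mean of at least 10 TPM. All other genes named were chosen after their values were seen. Alternatives were pseudocounts, a minimum of 10 TPM, scalings, variance models, array weights, other models, a replicate block, thresholds, and leaving out samples.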

Additional observations from a re-analysis of the deposited data

Results flagged for a closer look

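In the *BFN1* homolog *Sobic.003G087200*, *dd* replicate 4 was far from the other samples of its group, at 155 TPM against 215, 218 and 221 TPM. On log2(TPM + 1) the gap made up 0.919 of the range, above Dixon's critical value at 95% for 4 samples. Of 50 genes checked on this scale, this was the only one above it, and chance alone gives about 1 in 20. The genes picked for their wide range among *dd* samples were not among the 50. One of them, the lipoxygenase gene *Sobic.003G385500*, also had replicate 4 far apart, at 387 TPM against 3.53, 2.35 and 0.997 TPM.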

How the results depend on the processing

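The counts depend on the spread assumed and on single libraries. Against 10 DEGs, the count was 4 with a pseudocount of 3, 2 with a mean of at least 10 TPM, 80 with array weights, 1 with the 7 samples only, 104 in the additive model, 312 without *dd* replicates 1 and 2, 22 at an adjusted p under 0.05, 23 at any size, and 5 to 13 when each replicate was left out in turn. Against 23 passing genes, it was 11 with a mean of at least 10 TPM, 487 with array weights, 2 with the 7 samples only, 3020 in the additive model, which averages over treatments and days, 10 without *dd* replicates 3 and 4, 582 without replicates 1 and 2, and 9 to 22 with single replicates left out. On chromosome 6, against 15, these settings gave 9, 88, 1, 294, 8, 79 and 7 to 13. Of the fits that left out 1 replicate, those without *DD* replicates 2, 3 and 1 had the fewest passing genes, 9, 10 and 13. For genotype by day, against 0, array weights gave 126 and leaving out *dd* replicates 1 and 2 gave 6; for genotype by treatment, array weights gave 1 and an adjusted p under 0.05 with a change of at least 1 gave 4. The cause of these changes was not tested. The array weights did not reach convergence.

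Deviations of same-numbered *dd* and *DD* samples from their group means correlated at -0.13, 0.18 and 0.43, and those of unlike numbers at -0.19 to 0.19. Whether the replicate numbers pair the samples cannot be decided from so few pairs. The replicate block gave 17 passing genes, 16 of them among the 23, 10 DEGs, 14 passing genes on chromosome 6 and 0 for each interaction; not every sample correlated best with its own number.

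Of the named genes, 5 passed in each alternative that tested them, other than the additive model and the 7 samples only: *Sobic.006G144000* and *Sobic.006G103100*, and *Sobic.003G436200*, *Sobic.007G175200* and *Sobic.006G152100*, which the minimum of 10 TPM removed. Signs turned only in study genes under the test. Their log2 differences were -0.10 with array weights and -0.062 without *dd* replicates 3 and 4 for *Sobic.002G160400*, -0.034 and -0.064 in the same settings for *Sobic.007G101500*, -0.17 and -0.15 for *Sobic.001G100000*, and -0.056 without these replicates for *Sobic.002G233600*. In the additive model they were 0.30 for *Sobic.003G358600*, -0.20 for *Sobic.008G020700*, 0.048 for *Sobic.010G143500* and 0.15 for *Sobic.003G084000*, which was at 0.070 with median-of-ratios scaling. Another 13 sign changes were within 1 SE. Of the list medians, 646 values moved by less than the spread and 14 by more. TPM gives no depth, so that counting error is not known for any value.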
